A study of Mus musculus with 19 samples.

Results

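The 36 genes described here mark hepatic stellate cells or encode the extracellular matrix that these and related cells lay down. They were picked by symbol, and all 36 were found among the 24537 genes of the deposited table. The libraries come from isolated hepatocytes of 19 males of the strain C57BL/6J, all wild-type (WT), and each mouse gave 1 library. The labels name no treatment. The 10 young mice were 5 months old and the 9 old mice were 24 months old, and the labels describe isolation by perfusion of the liver. Mice of both ages were culled on each of 2 days that lay 23 days apart, with 5 young and 5 old mice on the first day and 5 young and 4 old mice on the second. Mice are referred to by the numbers of their libraries.

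Stellate cells sit between the hepatocytes and the sinusoidal endothelium and store retinyl esters in lipid droplets. In injured liver they are known to become activated, losing their retinoid store while gaining contractile proteins, fibrillar collagens and collagen-processing enzymes. Lrat, Reln and Ecm1 are used as markers of the quiescent state, and Acta2, Col1a1 and Timp1 as markers of the activated one. The comparison of 24 with 5 months therefore asks which genes of either kind differed with age in these libraries.

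Total counts over genes ranged from 17381439 to 19583059.5 in young libraries and from 18156240 to 20287628.5 in old ones. Hepatocyte markers dominated every library, as labelled: a list of 10 such genes summed to between 111789 and 170036 CPM (counts per 1000000, scaled between libraries by the trimmed mean of M-values) in young mice and between 138200 and 218461 CPM in old mice. The 36 stellate and matrix genes together took from 0.0109% to 0.0276% of counts in young mice and from 0.0253% to 0.123% in old mice. Old mouse 1187 stood apart: it was the highest of all 19 libraries for 29 of the 32 genes that could be tested, and old mouse 1189 was the highest for the other 3. At the other end, old mouse 1183 was the lowest old library for 26 of the 32. In these bulk libraries a larger number of stellate cells and more RNA per cell cannot be told apart.

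Most of these genes were higher in old mice. Of the 32 that passed the filter on low counts, 28 (87.5%) were higher at an adjusted p of at most 0.05 in edgeR's quasi-likelihood test with cull day as a covariate, against 16.3% of all 12269 genes tested. None was lower, against 14.5% of all genes tested. All 32 estimates were above 0, so that none was lower at an unadjusted p under 0.05 either, and DESeq2 and limma-voom also called 28 higher and 0 lower. At least a doubling was seen for 27 of the 28, against 6.88% of all genes tested. The median log2 fold change was 1.50, within a range of 0.25 to 2.29, beside a median of -0.003 over all genes tested. In 5 genes (Lrat, Cygb, Colec11, Col5a1 and Dcn) every old mouse lay above every young mouse, against 0.994% of all genes tested. Summed over the 36 genes, young mice averaged 187 ± 63.5 CPM (SD, n = 10), while old mice averaged 477 ± 231 CPM (SD, n = 9).

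Passing the filter needed about 0.52 CPM in at least 9 libraries. Pdgfra, Col5a2, Col6a2, Col6a3, Fbln5 and Mmp2 reached that level in fewer than 9 young libraries and so were tested only through the old ones. Their calls are therefore no support for a difference. Of the other 26 genes, 22 were higher in old mice.

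**Figure D1:**
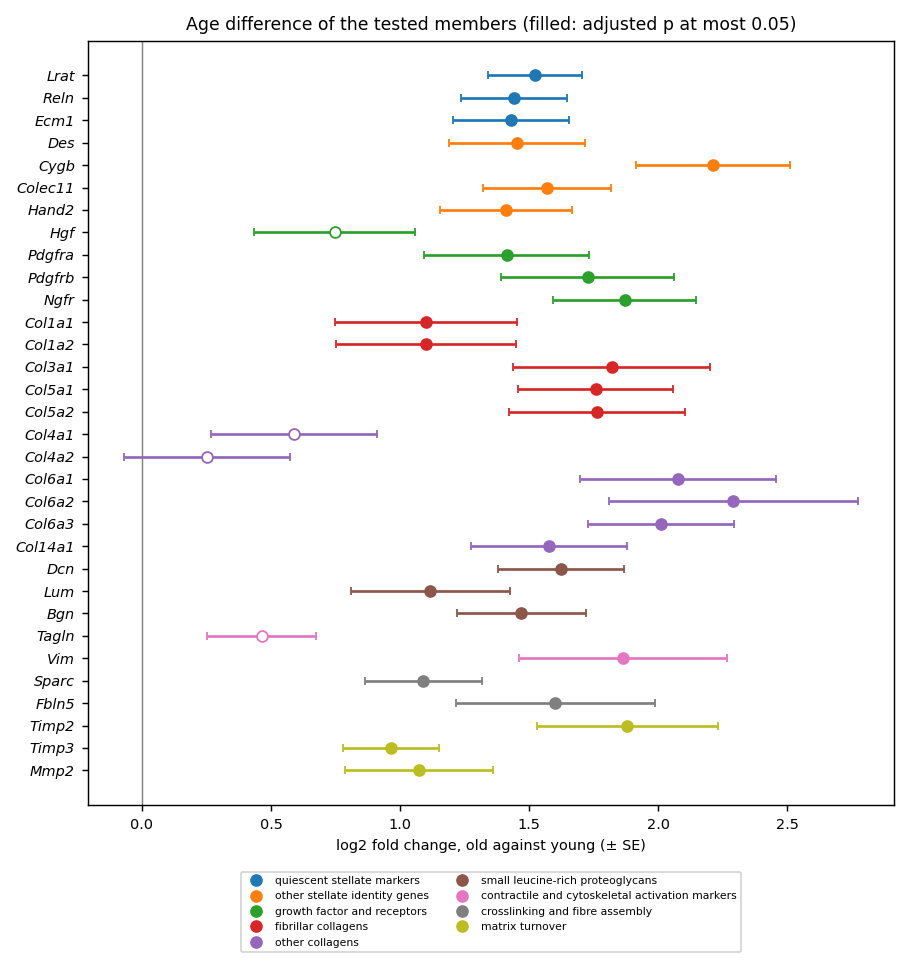
Log2 fold change of old against young mice (x axis) for the 32 tested genes (y axis), in the order and colours of their roles; bars are standard errors and filled points passed an adjusted p of 0.05. All points lie right of 0, and the 4 open ones are Hgf, Col4a1, Col4a2 and Tagln.

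All 3 markers of the quiescent state were higher in old mice, by close to the same factor. Lrat (chromosome 3, 82892582 to 82903974, mm10), whose product esterifies retinol for storage, ranged from 2.81 to 6.30 CPM in young mice (median 3.88) and from 7.90 to 20.4 CPM in old mice (median 12.0). Its log2 fold change was 1.52 (SE 0.182, adjusted p = 3.72e-05 in edgeR), and the ages did not overlap. Reln, which encodes the secreted glycoprotein reelin, ranged from 6.28 to 14.9 CPM in young mice (median 8.79) and from 14.1 to 43.2 CPM in old mice (median 28.2). Reln rose by 1.44 on the log2 scale (SE 0.205, adjusted p = 0.000124 in edgeR), with 8 of 9 old mice above all young mice and only old mouse 1183 within the young range. Ecm1, a secreted protein known to hold latent TGF-beta inactive in liver, ranged from 10.4 to 40.4 CPM in young mice (median 18.5) and from 39.3 to 115 CPM in old mice (median 50.3). The log2 fold change of Ecm1 was 1.43 (SE 0.223, adjusted p = 0.000253 in edgeR), again with 8 of 9 old mice above all young mice. Young mouse 1235 reached 40.4 CPM of Ecm1 and overlapped old mouse 1189.

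The promoters of Lrat and Ecm1 are shown because each gene was higher in old mice. Each run is the 250 bases before the start of the gene in RefSeq (GRCm38.p6), 5′ to 3′ on the strand of the gene, with searched motifs in capitals: CCAAT (the CCAAT box), CAGAC (the core of SMAD sites, read as GTCTG on the other strand), TGANTCA (the AP-1 site) and TATAAA (the TATA box).
Lrat, chr3:82903975-82904224, minus strand: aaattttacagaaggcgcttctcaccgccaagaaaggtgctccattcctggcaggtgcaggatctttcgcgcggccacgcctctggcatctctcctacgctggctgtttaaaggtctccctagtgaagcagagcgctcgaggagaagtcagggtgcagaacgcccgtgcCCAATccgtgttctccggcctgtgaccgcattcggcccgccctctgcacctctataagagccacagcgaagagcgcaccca
Ecm1, chr3:95739570-95739819, minus strand: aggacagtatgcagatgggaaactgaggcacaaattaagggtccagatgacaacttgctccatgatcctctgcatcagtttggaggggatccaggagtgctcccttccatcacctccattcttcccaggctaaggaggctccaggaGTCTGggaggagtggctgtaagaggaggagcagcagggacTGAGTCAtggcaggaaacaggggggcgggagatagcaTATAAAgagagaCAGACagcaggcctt
The Lrat window held a single CCAAT, 81 to 77 bases before the start. The Ecm1 window held TATAAA 27 to 22 bases before the start, an AP-1 motif 64 to 58 bases before it, and CAGAC on the gene's strand at 15 to 11 bases and on the other strand at 104 to 100 bases. These windows share none of the searched motifs.

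The other genes that mark stellate cells were also higher, 4 of 4. Cygb, which encodes the oxygen-binding cytoglobin, ranged from 0.617 to 2.80 CPM in young mice (median 1.32) and from 3.33 to 12.2 CPM in old mice (median 5.64), without overlap. This was a log2 fold change of 2.21 (SE 0.297, adjusted p = 7.64e-05 in edgeR). Colec11, a complement-activating lectin, ranged from 4.50 to 10.7 CPM in young mice (median 6.85) and from 13.3 to 52.5 CPM in old mice (median 18.6), also without overlap. The log2 fold change of Colec11 was 1.57 (SE 0.25, adjusted p = 0.00029 in edgeR). Des, which encodes the intermediate filament desmin, had a log2 fold change of 1.45, and Hand2, a transcription factor of the stellate lineage, one of 1.41.

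Among growth factor genes and receptors, 3 of 4 were higher. Pdgfra was tested only through the old libraries, so its call is no support for a difference. Without it 2 of 3 were higher. Ngfr, the p75 neurotrophin receptor, ranged from 0.729 to 3.04 CPM in young mice (median 1.14) and from 2.24 to 8.86 CPM in old mice (median 4.74). Ngfr rose by 1.87 on the log2 scale (SE 0.277, adjusted p = 0.000174 in edgeR), and 7 of 9 old mice lay above all young mice. Pdgfrb, the receptor for the PDGF B chain, ranged from 0.211 to 1.75 CPM in young mice (median 1.17) and from 1.20 to 8.64 CPM in old mice (median 2.90). Pdgfrb rose by 1.73 on the log2 scale (SE 0.335, adjusted p = 0.00133 in edgeR), with 8 of 9 old mice above all young mice. Pdgfra had a log2 fold change of 1.41. Hgf, which encodes hepatocyte growth factor, did not pass (log2 fold change 0.75, adjusted p = 0.0755 in edgeR): young mice spanned 0.826 to 5.14 CPM and old mice 0.935 to 7.33 CPM, and 4 of 9 old mice lay above all young mice. Leaving out young mouse 1184, old mouse 1183, or young mice 1184, 1186 and 1188 together brought Hgf past the threshold.

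The 5 fibrillar collagen genes were all higher in old mice. Col5a2 was tested only through the old libraries, so its call is no support for a difference. Without it 4 of 4 were higher. Col5a1, whose chain limits the width of collagen fibrils, ranged from 0.369 to 1.98 CPM in young mice (median 1.11) and from 2.29 to 9.25 CPM in old mice (median 3.29), without overlap. Col5a1 rose by 1.76 on the log2 scale (SE 0.299, adjusted p = 0.000481 in edgeR). Col5a2, its partner chain, had a log2 fold change of 1.76 (SE 0.341, adjusted p = 0.00132 in edgeR), from 0.168 to 0.892 CPM in young mice (median 0.521) to 0.82 to 4.38 CPM in old mice (median 1.67). Col3a1, the type III collagen chain, ranged from 1.11 to 5.91 CPM in young mice (median 2.86) and from 3.07 to 34.3 CPM in old mice (median 8.85), with a log2 fold change of 1.82 (SE 0.383, adjusted p = 0.00231 in edgeR). In old mice other than 1187 the highest Col3a1 level was 15.2 CPM.

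The type I collagen chains, the main product of activated stellate cells, had the lowest fold changes of the 5. Col1a1 (chromosome 11, 94936224 to 94953042, mm10) ranged from 0.273 to 2.95 CPM in young mice (median 0.860) and from 1.11 to 7.24 CPM in old mice (median 1.87). Its log2 fold change was 1.10 (SE 0.352, adjusted p = 0.0243 in edgeR), but only 2 of 9 old mice lay above all young mice. Col1a2 ranged from 1.31 to 4.81 CPM in young mice (median 2.12) and from 2.29 to 17.7 CPM in old mice (median 4.88), with a log2 fold change of 1.10 (SE 0.349, adjusted p = 0.0233 in edgeR). Neither call held without old mouse 1187: the log2 fold changes were then 0.78 for Col1a1 (adjusted p = 0.0759 in edgeR) and 0.71 for Col1a2 (adjusted p = 0.0569 in edgeR). The second cull day alone does not include that mouse. There Col1a1 passed (1.28, adjusted p = 0.0297 in edgeR) and Col1a2 did not (0.85, adjusted p = 0.0744 in edgeR). No test compared the fold changes of the type I chains with those of the other fibrillar collagens.

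The promoters of Col1a2 and Col3a1 are shown beside those of the quiescent markers, with the same motifs in capitals and on the same terms.
Col1a2, chr6:4505368-4505617, plus strand: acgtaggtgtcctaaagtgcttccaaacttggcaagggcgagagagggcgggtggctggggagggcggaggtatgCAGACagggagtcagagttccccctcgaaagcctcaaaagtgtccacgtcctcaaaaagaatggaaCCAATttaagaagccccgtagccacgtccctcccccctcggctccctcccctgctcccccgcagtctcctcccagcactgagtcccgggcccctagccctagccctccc
Col3a1, chr1:45311288-45311537, plus strand: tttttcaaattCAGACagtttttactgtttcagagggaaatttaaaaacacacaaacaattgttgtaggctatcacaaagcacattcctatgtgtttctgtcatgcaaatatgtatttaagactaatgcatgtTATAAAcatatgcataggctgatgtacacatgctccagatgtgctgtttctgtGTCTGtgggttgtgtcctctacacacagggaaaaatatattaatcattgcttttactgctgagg
The Col1a2 window held CCAAT 109 to 105 bases and CAGAC 175 to 171 bases before the start. The Col3a1 window held CAGAC at 239 to 235 bases and, on the other strand, at 64 to 60 bases, and TATAAA 117 to 112 bases before the start. Promoters of 25 of the 36 genes could be matched in RefSeq. In windows of 300 bases, 250 before to 50 after the start, and counting both strands, CAGAC was present in 52.0% of these 25 and in 49.7% of all 27025 promoters. For CCAAT the shares were 40.0% and 37.8%, for TGANTCA 8.0% and 7.79%, and for TATAAA 12.0% and 14.1%. The CArG box, bound by serum response factor, was matched in 0 of 25 windows, and in 1.53% of all promoters. The 25 promoters had a median GC content of 60.7%, against 52.7% over all promoters.

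Among the other collagens, 4 of 6 were higher. Of these, Col6a2 and Col6a3 were tested only through the old libraries, so their calls are no support for a difference. Without them 2 of 4 were higher. Col6a1, a chain of the type VI collagen that forms beaded microfilaments, ranged from 0.421 to 1.69 CPM in young mice (median 1.09) and from 1.14 to 13.6 CPM in old mice (median 3.22). Col6a1 rose by 2.08 on the log2 scale (SE 0.379, adjusted p = 0.00083 in edgeR). Col6a3, a second chain of the same trimer, ranged from 0.369 to 1.34 CPM in young mice (median 0.703) and from 1.25 to 5.76 CPM in old mice (median 2.78), with a log2 fold change of 2.01 (SE 0.282, adjusted p = 0.000111 in edgeR). For both chains 8 of 9 old mice lay above all young mice. Col6a2 had a log2 fold change of 2.29 and Col14a1, a fibril-associated collagen, one of 1.58. In Col6a2 the highest library was old mouse 1189, at 9.60 CPM, and the next old mouse had 3.75 CPM.

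The basement membrane collagens did not pass. Col4a1 ranged from 8.68 to 36.7 CPM in young mice (median 13.9) and from 5.87 to 56.5 CPM in old mice (median 22.9), with a log2 fold change of 0.59 (SE 0.321, adjusted p = 0.17 in edgeR). Col4a2 ranged from 4.49 to 26.5 CPM in young mice (median 10.3) and from 4.36 to 30.6 CPM in old mice (median 12.6), with a log2 fold change of 0.25 (adjusted p = 0.577 in edgeR). The ages overlapped in both genes, and a single old mouse exceeded every young mouse in each. The genes lie head to head on chromosome 8 and overlap by 22 bases in mm10, where reads cannot be assigned without strand. Col4a1 passed the threshold without old mouse 1183, on the second cull day alone (0.85, adjusted p = 0.0148 in edgeR) and without young mice 1184, 1186 and 1188 (1.07, adjusted p = 0.03 in edgeR). It was at 0.35 without old mouse 1187 (adjusted p = 0.414 in edgeR). In the fit with endothelial and macrophage markers described below, Col4a1 was at -0.31 (adjusted p = 0.165 in edgeR) and Col4a2 at -0.53 (adjusted p = 0.0811 in edgeR).

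**Figure D2:**
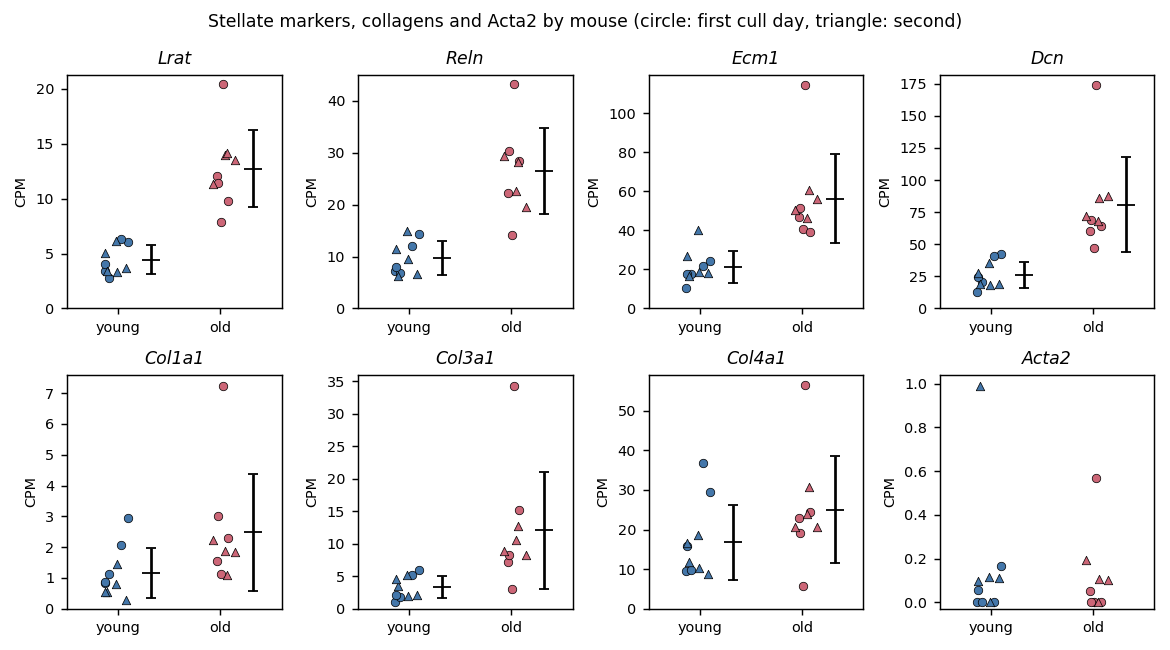
CPM of 8 genes (y axis) in each young and old mouse (x axis); circles are mice of the first cull day, triangles of the second, and the bars beside the points are the mean and SD, left out for Acta2. Lrat and Dcn separate the ages, Col1a1 and Col4a1 overlap, and Acta2 stays under 1 CPM in all 19 mice.

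All 3 small leucine-rich proteoglycans, which bind collagen fibrils, were higher in old mice. Dcn, decorin, ranged from 13.1 to 42.3 CPM in young mice (median 22.6) and from 46.8 to 174 CPM in old mice (median 68.8), without overlap. Dcn rose by 1.62 on the log2 scale (SE 0.244, adjusted p = 0.000204 in edgeR). Bgn, biglycan, ranged from 9.64 to 37.2 CPM in young mice (median 19.1) and from 31.7 to 128 CPM in old mice (median 51.6), with a log2 fold change of 1.47 (SE 0.25, adjusted p = 0.000471 in edgeR). Lum, lumican, had a log2 fold change of 1.12.

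Per kilobase of exon, decorin was the most abundant of the 36 at either age. Its median was 12.0 CPM per kb in young and 36.6 CPM per kb in old mice, followed at both ages by Ecm1 with 9.83 and 26.7 and Bgn with 7.91 and 21.4 CPM per kb. Next came Sparc with 6.66 and 12.5 and Colec11 with 4.78 and 13.0 CPM per kb, Sparc being the higher in young mice and Colec11 in old mice. Lrat and Reln lay close together, at medians of 0.727 and 0.755 CPM per kb in young mice and of 2.25 and 2.42 CPM per kb in old mice. Col1a1 was lower still on this scale, at 0.146 CPM per kb in young and 0.318 CPM per kb in old mice.

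**Figure D3:**
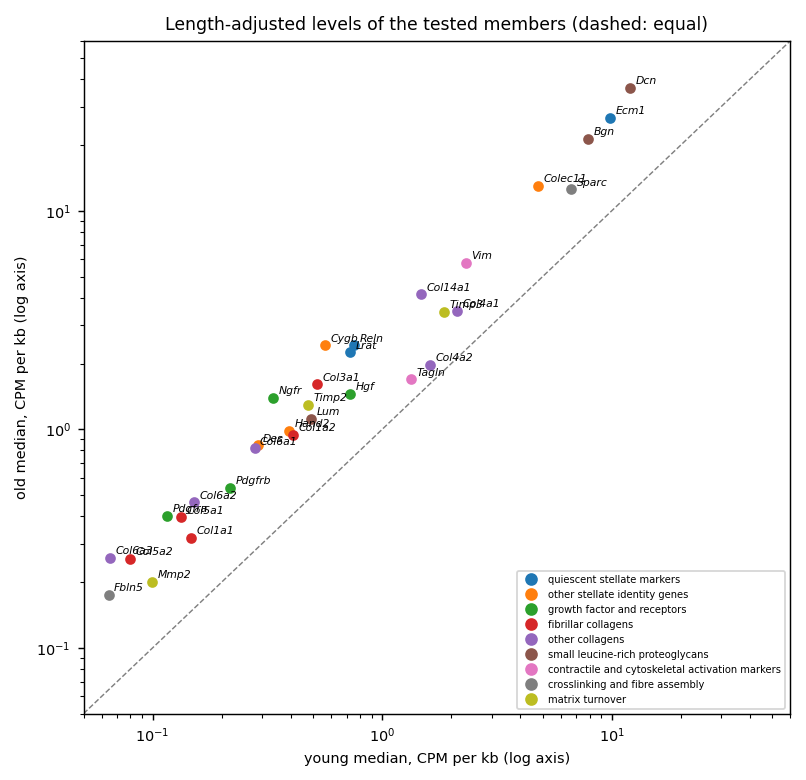
Median CPM per kilobase in old mice (y axis) against young mice (x axis), both log axes, for the 32 tested genes coloured by role; the dashed line marks equal levels. All points lie above the line, Dcn is at the top right and Fbln5, Col6a3 and Col5a2 are at the lower left.

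Of the 3 markers of contraction and activation, 2 could be tested and 1, Vim, was higher in old mice. Acta2, which encodes the smooth muscle actin used as the standard marker of activated stellate cells, was under the filter. It had 0 to 17.5 counts in young mice (median 1.5) and 0 to 13 counts in old mice (median 1), with under 3 counts in 8 of 10 young and 7 of 9 old libraries. A difference in Acta2 was therefore not detectable at this depth. Its highest young library, mouse 1239 at 0.991 CPM, also held the highest Krt19 (3.30 CPM), a marker of bile duct cells, and the highest sum of smooth muscle markers among young mice (4.57 CPM). Tagln, which encodes an actin-binding protein of smooth muscle, ranged from 1.51 to 2.64 CPM in young mice (median 2.11) and from 1.95 to 6.59 CPM in old mice (median 2.68), and did not pass (log2 fold change 0.46, SE 0.211, adjusted p = 0.10 in edgeR). Vim, vimentin, an intermediate filament of mesenchymal cells and also of endothelium and leukocytes, ranged from 2.80 to 6.18 CPM in young mice (median 4.23) and from 4.05 to 62.0 CPM in old mice (median 10.6). The log2 fold change of Vim was 1.86 (SE 0.403, adjusted p = 0.00279 in edgeR), and 1.20 without old mouse 1187, with 8 of 9 old mice above all young mice.

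Of the genes for crosslinking and fibre assembly, both that could be tested were higher. Fbln5 was tested only through the old libraries, so its call is no support for a difference, which leaves Sparc. Sparc, a collagen-binding matricellular protein, ranged from 10.7 to 27.9 CPM in young mice (median 17.5) and from 18.9 to 83.2 CPM in old mice (median 32.9), with a log2 fold change of 1.09 (SE 0.228, adjusted p = 0.00224 in edgeR). Fbln5, an elastic fibre protein, ranged from 0.218 to 0.725 CPM in young mice (median 0.378) and from 0.313 to 4.15 CPM in old mice (median 1.02), with a log2 fold change of 1.60 (SE 0.385, adjusted p = 0.00538 in edgeR). The crosslinking enzymes Lox and Loxl1 were under the filter. Lox had at most 4.5 counts in young and 5 counts in old mice. Loxl1 had 0 to 4 counts in young mice (median 1.5) and 2.5 to 11 counts in old mice (median 6).

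Of the genes for matrix turnover, all 3 that could be tested were higher. Mmp2 was tested only through the old libraries, so its call is no support for a difference. Without it 2 of 2 were higher. Timp2, an inhibitor of matrix metalloproteinases, ranged from 1.05 to 2.84 CPM in young mice (median 1.72) and from 2.29 to 24.0 CPM in old mice (median 4.68), with a log2 fold change of 1.88 (SE 0.352, adjusted p = 0.00103 in edgeR). Timp3, the matrix-bound inhibitor, ranged from 5.24 to 12.7 CPM in young mice (median 8.66) and from 9.98 to 31.1 CPM in old mice (median 16.1), with a log2 fold change of 0.96 (SE 0.185, adjusted p = 0.00125 in edgeR). Mmp2, a gelatinase, had a log2 fold change of 1.07. It ranged from 0.110 to 0.588 CPM in young mice and from 0.260 to 1.13 CPM in old mice, with 6 of 9 old mice above all young mice. Timp1, the inhibitor known to rise in activated stellate cells, was under the filter, with 0 to 10 counts in old mice (median 1) and a median of 0 in young mice. A single young library, mouse 1186, had 43 counts of Timp1 and also the highest Spp1 of all young mice (151 CPM).

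The ratio of a quiescent to an activation marker within a library needs no scaling between libraries. With 0.5 added to counts, the log2 ratio of Lrat to Col1a1 averaged 2.15 ± 0.90 (SD, n = 10) among young mice, while among old mice it averaged 2.55 ± 0.65 (SD, n = 9). The difference, averaged over cull days, was 0.43 (exact two-sided permutation p = 0.181, adjusted p = 0.328 over 9 ratios). Reln to Col1a1 differed by 0.34 (exact permutation p = 0.212, adjusted p = 0.328) and Ecm1 to Col1a1 by 0.31 (exact permutation p = 0.352, adjusted p = 0.397). Against Col3a1 the differences had the opposite sign: -0.21 for Lrat (exact permutation p = 0.439, adjusted p = 0.439), -0.30 for Reln (exact permutation p = 0.255, adjusted p = 0.328) and -0.34 for Ecm1 (exact permutation p = 0.229, adjusted p = 0.328). The ages overlapped in all 6 of these ratios, and a difference between quiescent markers and collagens was not seen beyond the spread between mice, which does not show that they changed equally.

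Against Acta2 the differences were 1.70 for Lrat (exact permutation p = 0.0242), 1.61 for Reln (exact permutation p = 0.0383) and 1.57 for Ecm1 (exact permutation p = 0.029), each with an adjusted p of 0.115. So 3 of the 9 ratios had an unadjusted p under 0.05 and 0 passed after adjustment. The Acta2 counts behind them were mostly under 3, so the ratios mainly carry the rise of Lrat, Reln and Ecm1 given above (1.52, 1.44 and 1.43 on the log2 scale), and say nothing of a change in Acta2. All 3 had an adjusted p under 0.05 with 2 counts added in place of 0.5, without old mouse 1187, or without young mouse 1237, and the same limit holds there.

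**Figure D4:**
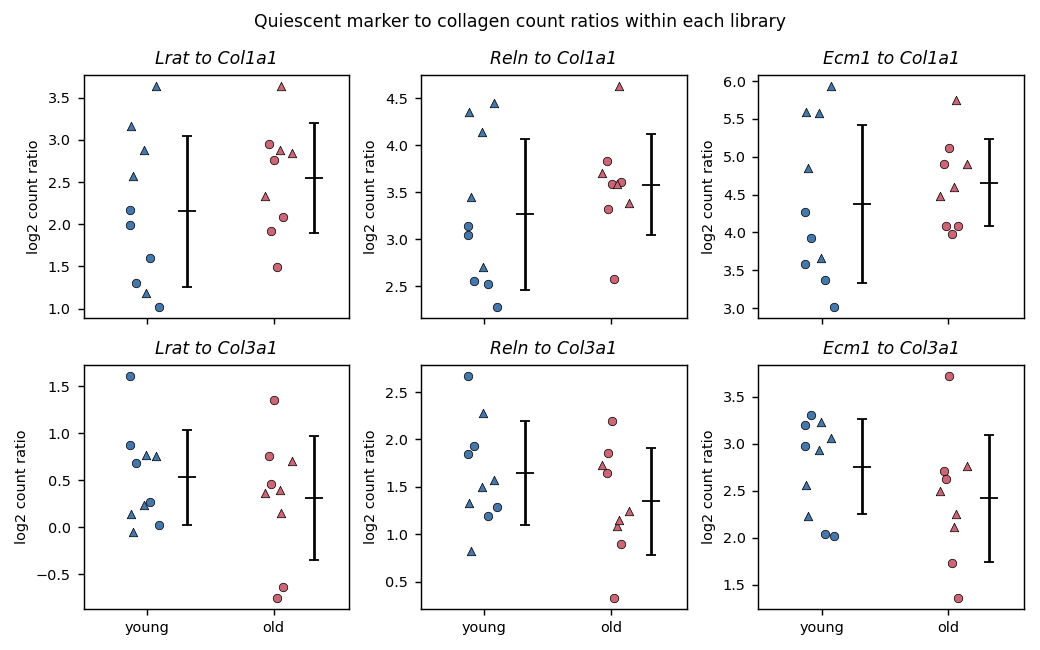
Log2 ratio of the counts of Lrat, Reln and Ecm1 to those of Col1a1 (top) and Col3a1 (bottom) in each young and old mouse, with 0.5 added to counts; circles and triangles are the first and second cull day and bars are the mean and SD. The ages overlap in all 6 panels.

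Within ages and cull days, Lrat and Reln varied together from mouse to mouse, while Ecm1 was not part of these pairs. After the mean of each age and cull day was subtracted, Lrat and Reln had a Pearson r of 0.822 over 19 mice (permutation p = 0.00075, adjusted p = 0.00252 over 6 pairs) and a Spearman rho of 0.789 (permutation p = 0.0013, adjusted p = 0.0039). The Pearson r was 0.738 without mice 1187 and 1235, and 0.894 and 0.677 within the first and second day. Lrat went with Stab2, a receptor of sinusoidal endothelium that is none of the 36, with r = 0.772 (permutation p = 0.00084, adjusted p = 0.00252) and rho = 0.789 (permutation p = 0.00029, adjusted p = 0.00174). That relation gave 0.683 without the same mice, and 0.796 and 0.705 within the days.

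The collagen relations did not hold within both days. Col1a1 and Col3a1 had r = 0.667 (permutation p = 0.0135, adjusted p = 0.027) and rho = 0.625 (permutation p = 0.019, adjusted p = 0.0381), and r = 0.739 without mice 1187 and 1237. Within days r was 0.917 on the first and -0.183 on the second. Lrat and Col1a1 had r = 0.592 (permutation p = 0.0307, adjusted p = 0.046) and rho = 0.486 (permutation p = 0.0713, adjusted p = 0.0855). Without mice 1187 and 1235 this r was 0.424, and within days it was 0.855 and -0.0881. Lrat with Acta2 gave r = 0.361 (permutation p = 0.174, adjusted p = 0.174) and rho = 0.354 (permutation p = 0.156, adjusted p = 0.156), and r = 0.141 without the same mice. Col1a1 with Stab2 gave r = 0.539 (permutation p = 0.0568, adjusted p = 0.0681) and rho = 0.465 (permutation p = 0.0669, adjusted p = 0.0855), and r = 0.514 without mice 1187 and 1237. For these last pairs the values within days were 0.745 and -0.248, and 0.772 and -0.0192.

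The age difference had the same sign on both cull days for all 32 tested genes. On the first day alone 9 genes passed, against 1.87% of all genes tested, and on the second day 27 passed, against 11.7%. The interaction of age with cull day passed for 0 of 32 in edgeR, against 0% of all genes tested. None of the 32 had an interaction with an unadjusted p under 0.05, against 799 of all 12269 genes tested. The smallest among the 32 was p = 0.130 (adjusted p = 0.852 in edgeR). Lrat differed by 1.44 on the first day and 1.60 on the second, and Col3a1 by 2.06 and 1.52, on the log2 scale.

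Markers of other non-parenchymal cells moved in the same direction. All 10 tested genes of the Kupffer cell and macrophage list were higher in old mice, beside 16.3% of all genes tested (14.5% were lower), and their sum ranged from 82.3 to 398 CPM in young and from 52.2 to 2323 CPM in old mice, with mouse 1187 the highest. Marco, a scavenger receptor, differed by 2.16 on the log2 scale (SE 0.596, adjusted p = 0.0116 in edgeR) and Cd68, a lysosomal protein of macrophages, by 1.74 (SE 0.497, adjusted p = 0.0139 in edgeR). In the list of sinusoidal endothelium 7 of 10 were higher and none was lower, beside the same shares, and the sum ranged from 143 to 256 CPM in young and from 147 to 499 CPM in old mice. Fcgr2b, an Fc receptor, differed by 0.90 (SE 0.172, adjusted p = 0.00125 in edgeR) and Kdr, a VEGF receptor, by 0.77 (SE 0.158, adjusted p = 0.00204 in edgeR). None of 8 T, NK and B cell markers passed the filter, but their sum ranged from 0.112 to 0.547 CPM in young and from 1.28 to 27.4 CPM in old mice, without overlap and with mouse 1187 the highest, and the part of these cells in the result was not tested. Of the bile duct markers neither Sox9 (0.32, adjusted p = 0.41 in edgeR) nor Spp1 (-0.34, adjusted p = 0.752 in edgeR) passed. In the hepatocyte list 2 of 10 were higher and 3 were lower, beside the same 16.3% and 14.5% of all genes tested. Among them were Apoa1, an apolipoprotein (0.41, SE 0.102, adjusted p = 0.00666 in edgeR), and Cps1, a urea cycle enzyme (-0.64, SE 0.129, adjusted p = 0.00177 in edgeR).

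The calls were repeated with the endothelial and macrophage markers in the fit. With the mean log2 level of the 20 genes of those lists as a covariate, 22 of the 32 stellate and matrix genes remained higher and 0 were lower in edgeR, against 8.26% of all genes tested that were higher. The 22 include Pdgfra, Col5a2, Col6a2 and Col6a3. These were tested only through the old libraries, so their calls are no support for a difference. Lrat then differed by 1.12 (adjusted p = 5.89e-06 in edgeR), Reln by 1.03, Ecm1 by 1.00 and Dcn by 1.07. Among the calls that were kept, Col3a1 differed by 0.90, Timp2 by 0.88, Col14a1 by 0.75 and Sparc by 0.48. The calls that were lost were Col1a1 (0.42, adjusted p = 0.321 in edgeR), Col1a2 (0.27, adjusted p = 0.411 in edgeR), Lum (0.47, adjusted p = 0.174 in edgeR), Vim (0.59, adjusted p = 0.0587 in edgeR), Fbln5 (0.81, adjusted p = 0.0841 in edgeR) and Mmp2 (0.60, adjusted p = 0.14 in edgeR). Without old mouse 1187, 26 of 32 were higher, against 12.4% of all genes tested, and without young mice 1184, 1186 and 1188, which stood apart in earlier results of these data, 30 were higher, against 14.6% of all genes tested. Both counts include the 6 genes that in the fit of all mice were tested only through the old libraries.

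**Figure D5:**
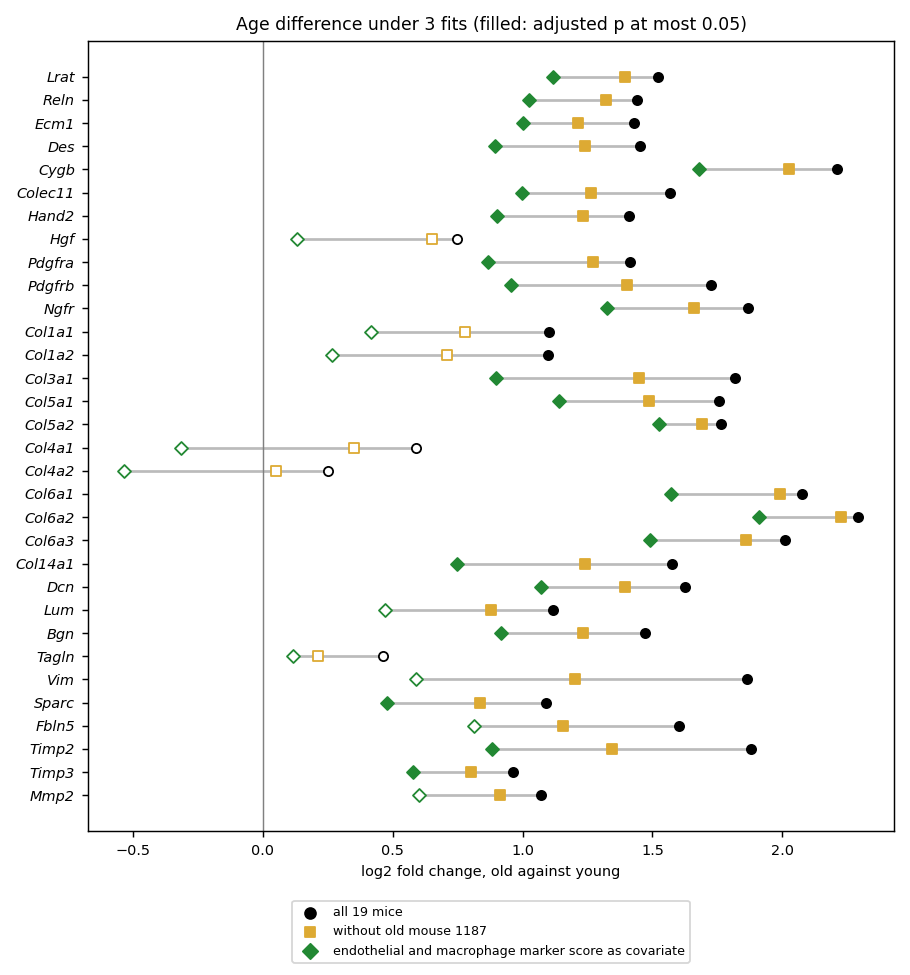
Log2 fold change of old against young mice (x axis) for the 32 tested genes (y axis) over all 19 mice (circles), without old mouse 1187 (squares) and with endothelial and macrophage markers as a covariate (diamonds); filled symbols passed an adjusted p of 0.05. The quiescent markers stay filled in all 3 fits, and Col1a1 and Col1a2 are filled in the fit of all mice only.

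A further list of 10 stellate markers outside the 36 was measured alongside. All 9 that could be tested were higher, beside 16.3% of all genes tested. Of these, 4 reached the filter level in fewer than 9 young libraries and were tested only through the old ones, and the other 5 were all higher. The sum of the list ranged from 23.6 to 47.5 CPM in young mice and from 51.5 to 102 CPM in old mice, without overlap. Tcf21, a transcription factor, had a log2 fold change of 1.95 (SE 0.241, adjusted p = 4.4e-05 in edgeR) and Adamtsl2, a microfibril-associated protein, one of 1.91 (SE 0.298, adjusted p = 0.000246 in edgeR), but both are among those 4 and their calls are no support for a difference. Marker lists of other matrix-producing cells held fewer genes and had lower sums, which does not measure the share of these cells. Of 6 portal fibroblast markers 2 could be tested and Cd34 was higher (log2 fold change 1.14, adjusted p = 0.00873 in edgeR), but only 2 young libraries reached the filter level, so this call is no support for a difference. Entpd2 did not pass (0.18, adjusted p = 0.199 in edgeR). The sum of that list ranged from 3.60 to 4.99 CPM in young and from 4.58 to 8.38 CPM in old mice. Both testable genes of the 6 vascular smooth muscle markers were higher, with Mustn1, tested only through the old libraries, at a log2 fold change of 2.07 and Smtn at 0.87. That list summed to 1.58 to 4.57 CPM in young and 4.21 to 13.2 CPM in old mice, and Myocd had no count in any library. Mesothelial markers reached at most 0.611 CPM in sum.

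Genes of the pathways that act on stellate cells were higher in part. In the TGF-beta list of 20 genes, 17 were tested, 9 were higher and 1 (Smad4, a shared signal transducer, -0.29) was lower, beside 16.3% and 14.5% of all genes tested. Without the genes tested only through the old libraries, 7 of 14 were higher. Ltbp4, a latent TGF-beta binding protein, had a log2 fold change of 1.16 (SE 0.205, adjusted p = 0.000616 in edgeR) and Ctgf, a known TGF-beta target, one of 2.41 (SE 0.460, adjusted p = 0.0012 in edgeR). Ctgf had 8 young libraries at the filter level and was tested only through the old ones, so its call is no support for a difference. Of 4 PDGF ligands 3 were tested and 2 were higher, beside 16.3% of all genes tested: Pdgfb by 2.12 (SE 0.372, adjusted p = 0.000591 in edgeR), and Pdgfc by 0.83 (SE 0.217, adjusted p = 0.00874 in edgeR). For Pdgfb 0 of 10 young libraries reached the filter level, so its call is no support for a difference, and without it 1 of 2 was higher. In the retinoid list of 11 genes, 9 were tested, 4 were higher and 1 (Aldh1a1, a retinal dehydrogenase) was lower, beside the same 16.3% and 14.5% of all genes tested. The median log2 fold change of that list was 0.08. Rarb, a retinoic acid receptor, differed by 1.05 (SE 0.165, adjusted p = 0.000273 in edgeR) and Cyp26a1, which degrades retinoic acid, by 1.67 (SE 0.333, adjusted p = 0.00168 in edgeR).

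In the list of basement membrane and other matrix genes, 15 of 20 were tested, 11 were higher and none was lower, and 10 of 14 were higher without the gene tested only through the old libraries. Efemp1, a fibulin, differed by 2.19 (SE 0.293, adjusted p = 7.4e-05 in edgeR) and Hspg2, which encodes perlecan, by 0.90 (SE 0.15, adjusted p = 0.000374 in edgeR). Of 16 other matrix proteases and crosslinking genes 11 were tested, 7 were higher and 2 were lower, and 6 of 10 were higher without the gene tested only through the old libraries. The shares of all genes tested were again 16.3% higher and 14.5% lower. Mmp14, a membrane-bound protease that activates the Mmp2 proenzyme, differed by 0.90 (SE 0.125, adjusted p = 9.3e-05 in edgeR), without overlap of the ages, and Adamts1 by 0.96 (SE 0.139, adjusted p = 0.00014 in edgeR).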

How the data were processed

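The deposited values are estimated counts for each gene in 1 table, which per the file headers was written by HOMER for mm10, over exons of RefSeq transcripts condensed to genes, as raw counts. STAR, HOMER, GRCm38 and mm10 are named in the submitters' processing notes. Versions, strand setting and the treatment of reads with several matches are not given in the sources used here. RNA was extracted with Trizol and chloroform for a stranded paired-end library, per the labels' protocols. Values were multiples of 0.5 (29.2% were not whole) and were rounded, ties to even. At this depth, 3 counts were taken as the floor.

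The 36 genes and all lists were chosen with earlier results of these data known. Old and young mice were compared with edgeR 4.0.16 in R 4.3.3 (quasi-likelihood test, TMM scaling, filterByExpr with a minimum count of 10, cull day as covariate, Benjamini-Hochberg adjustment over 12269 genes, threshold 0.05), which was also tested on simulated data. SE is the absolute log2 fold change over the square root of F. CPM divides by the TMM-scaled library size. Ratios were tested by exact permutation within cull days (31752 relabellings), and correlations on log2(CPM + 0.1) by 100000 permutations. DESeq2 1.42.0 and limma 3.58.1 were alternatives. Named in full were the quiescent markers and the pair with the smallest p in each other role, and likewise the pair in each further list; Col3a1, the type I collagens, the type IV collagens and the genes under the filter were added after their values were seen. The labels call each library a mouse of its own. The hepatocyte list gave 2 higher and 3 lower of 10, and cholangiocyte markers 0 of 2 tested.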

Additional observations from a re-analysis of the deposited data

Results flagged for a closer look

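In each age the highest and the lowest log2 CPM of every tested gene was set against the spread of the others by Dixon's criterion. Of 64 groups examined 10 held a library that stood apart, and chance gives about 1 in 20 for a group taken alone. The genes share the same libraries, so the groups are not independent and the 10 cannot be weighed against that share. In 7 of the 10 the library was old mouse 1187, the highest for Ecm1 (115 CPM, next 60.9), Colec11 (52.5, next 24.0), Col1a2 (17.7, next 5.63), Col5a1 (9.25, next 4.33), Dcn (174, next 87.9), Tagln (6.59, next 3.45) and Timp2 (24.0, next 5.91 CPM). Old mouse 1183 was the lowest for Col4a1 (5.87 CPM, next 19.1) and Mmp2 (0.26 CPM, next 0.574). Young mouse 1180 was the lowest for Hand2 (0.316 CPM, next 0.764).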

How the results depend on the processing

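Of the genes tested, 28 of 32 were higher with all mice, and 28 again under DESeq2 size factors, library totals, DESeq2, limma-voom, no cull day term and unrounded counts (the last added after seeing the data). The count was 29 of 36 without a filter, 24 of 28 with at least 1 CPM in 9 libraries, 27 on the second cull day and 9 on the first; the cause was not tested. Leaving out each mouse in turn gave 26 to 30 (without young mouse 1244, Mmp2 fell under the filter), and none was lower under any of these settings. With the endothelial and macrophage covariate Col4a1 (-0.31) and Col4a2 (-0.53) changed sign without passing, and the cause was not tested. Loxl1 passed only without the filter (adjusted p = 0.0291 in edgeR). Of the 9 ratios 0 passed, 3 passed with 2 counts added, and 0 to 3 passed when each mouse was left out. On the second day alone Lrat to Col3a1 (0.032) and Ecm1 to Col1a1 (-0.19) changed sign. Over all genes 2005 were higher and 1780 lower, but 2098 and 1169 under library totals, 230 and 220 on the first day, 1441 and 965 on the second, and 1014 and 943 with the covariate. No paired analysis was possible because young and old mice share no library numbers. Of the 36 genes, those that reached about 0.52 CPM in fewer than 9 libraries were tested only in the fit without a filter.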
